A study of Mus musculus with 4 samples.

Results

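The genes described here encode chaperones and disulfide isomerases of the endoplasmic reticulum (ER): Hspa5, Hsp90b1, Pdia3, Pdia4, Pdia6, Dnajc3, Calr, Canx, Sdf2l1 and Creld2. They are 10 of the 35998 genes in the deposited tables, listed by symbol, and all 10 were found. The genes were chosen by their difference between the fasted and the fed plates in AgRP neurons of these same data, so that difference is given below as a description, without a p-value for any of the 10 genes.

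The cells were sorted from hypothalami of C57BL/6 mice with the genotype Lepr-cre;Rosa-LSL-tdTomato, in which cre expressed from the leptin receptor locus switches on a red reporter for good, so a reporter cell need not express the receptor when it is sorted. A single plate came from animals left without food for 24 h (fasted), and 3 plates came from fed animals of the same genotype. Every plate held 384 wells with 1 sorted cell per well and was processed by CEL-seq2, which counts 3′ ends of transcripts by unique molecular identifiers. Because there was 1 fasted plate, what fasting did and what is particular to that plate cannot be told apart, and nothing in the sources used here says how many animals went into a plate.

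The ER is where secreted and membrane proteins fold. Hspa5 (BiP) and Hsp90b1 (GRP94) bind unfolded chains, the lectins Calr and Canx hold glycoproteins, and disulfide isomerases form and rearrange disulfide bonds. When unfolded protein accumulates, the unfolded protein response raises the transcription of many of these genes, among others through ATF6 and XBP1. AgRP neurons of the arcuate nucleus promote feeding, and they secrete the peptides AgRP, which is rich in disulfide bonds, and NPY.

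Of 1536 wells, 1279 were kept: 270 on the fasted plate and 356, 322 and 331 on fed plates 1, 2 and 3. The kept wells held 5098279 transcripts on the fasted plate and between 4402407 and 5535041 on the fed plates. The plates also differed in the sex of the cells, since 84.4% of kept wells on the fasted plate had Xist but none of the Y-linked transcripts (Xist-only), against 6.74%, 51.6% and 42.0% on the fed plates. Wells with Y-linked transcripts but no Xist (Y-only) made up 0% on the fasted plate, against 75.6%, 25.2% and 29.6% on the fed plates. Both kinds of well were thus found on every fed plate, and sex differed along with fasting. Cells were grouped without using the 10 genes or any gene of the pathway lists. There were 193 AgRP-like neurons, 23 on the fasted plate and 83, 59 and 28 on the fed plates. The label rests on their markers: the 2 clusters behind it met 5 and 7 of the 7 listed AgRP neuron markers. Fed plate 1 stood apart: 80 of its 83 AgRP-like neurons lay in a cluster that held none of the 23 fasted cells, so values without that plate are also given.

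The start sites of the genes show what most of them have in common in sequence. Windows of 300 bases, reaching from 250 bases before to 50 bases after the RefSeq start on GRCm38.p6, were searched on both strands for the ER stress response element (ERSE), which is CCAAT followed after a spacer of 9 free bases by CCACG. NF-Y binds the CCAAT part and ATF6 the CCACG part. The element was defined in promoters of genes of this kind, so its presence here is background and not a finding of these plates. It was found in 7 of the 10 genes, against 39 of all 32817 windows (0.119%). The matched bases of those 7 genes are shown because they are the shared element itself, written along the gene's own strand from 5′ to 3′ with its fixed bases in capitals. A match that begins with CGTGG lies on the opposite strand.
Hspa5, chr2:34772025-34772043, plus strand: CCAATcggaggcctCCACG
Hsp90b1, first match, chr10:86705638-86705656, minus strand: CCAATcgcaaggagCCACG
Hsp90b1, second match, chr10:86705533-86705551, minus strand: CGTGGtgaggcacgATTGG
Pdia6, chr12:17266491-17266509, plus strand: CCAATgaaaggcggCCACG
Dnajc3, chr14:118937827-118937845, plus strand: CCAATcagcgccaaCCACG
Calr, chr8:84847075-84847093, minus strand: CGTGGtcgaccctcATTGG
Canx, chr11:50325800-50325818, minus strand: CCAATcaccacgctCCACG
Creld2, chr15:88819520-88819538, plus strand: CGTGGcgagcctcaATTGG

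The match nearest to a start site began 65 bases before that of Hspa5, and the farthest began 212 bases before that of Hsp90b1, the only one of the 10 genes with 2 matches. No match was in the windows of Pdia3, Pdia4 and Sdf2l1. The related ERSE-II letters, ATTGG and CCACG with 1 free base between them, were in 12 windows (0.0366%) and the UPRE core letters, TGACGTGG, in 222 windows (0.676%), in none of the 10 genes for either. Absence of a match says only that these letters are not in this window. The whole windows of 3 genes are given for comparison: Hspa5 with 1 match, Hsp90b1 with 2, and Pdia3 with none. Capitals mark the matched element.
Hspa5, chr2:34771840-34772139, plus strand: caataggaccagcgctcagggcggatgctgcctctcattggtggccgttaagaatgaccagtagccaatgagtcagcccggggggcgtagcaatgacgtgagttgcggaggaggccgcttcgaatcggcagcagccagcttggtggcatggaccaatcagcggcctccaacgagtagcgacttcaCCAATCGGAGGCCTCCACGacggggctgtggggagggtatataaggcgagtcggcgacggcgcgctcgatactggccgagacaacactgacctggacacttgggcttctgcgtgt
Hsp90b1, chr10:86705395-86705694, minus strand: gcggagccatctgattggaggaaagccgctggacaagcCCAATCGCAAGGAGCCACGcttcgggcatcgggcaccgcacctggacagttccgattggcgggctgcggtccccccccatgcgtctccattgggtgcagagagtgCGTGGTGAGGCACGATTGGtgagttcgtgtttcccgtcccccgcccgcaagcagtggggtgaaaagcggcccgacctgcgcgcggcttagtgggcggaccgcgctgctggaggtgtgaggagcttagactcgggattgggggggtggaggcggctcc
Pdia3, chr2:121413652-121413951, plus strand: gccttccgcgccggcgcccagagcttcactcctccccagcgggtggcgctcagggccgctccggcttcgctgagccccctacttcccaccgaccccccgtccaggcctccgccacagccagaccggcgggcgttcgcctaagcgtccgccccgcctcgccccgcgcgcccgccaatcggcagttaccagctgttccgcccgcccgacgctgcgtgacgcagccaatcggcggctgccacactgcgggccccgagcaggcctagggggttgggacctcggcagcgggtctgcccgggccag

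**Figure D1:**
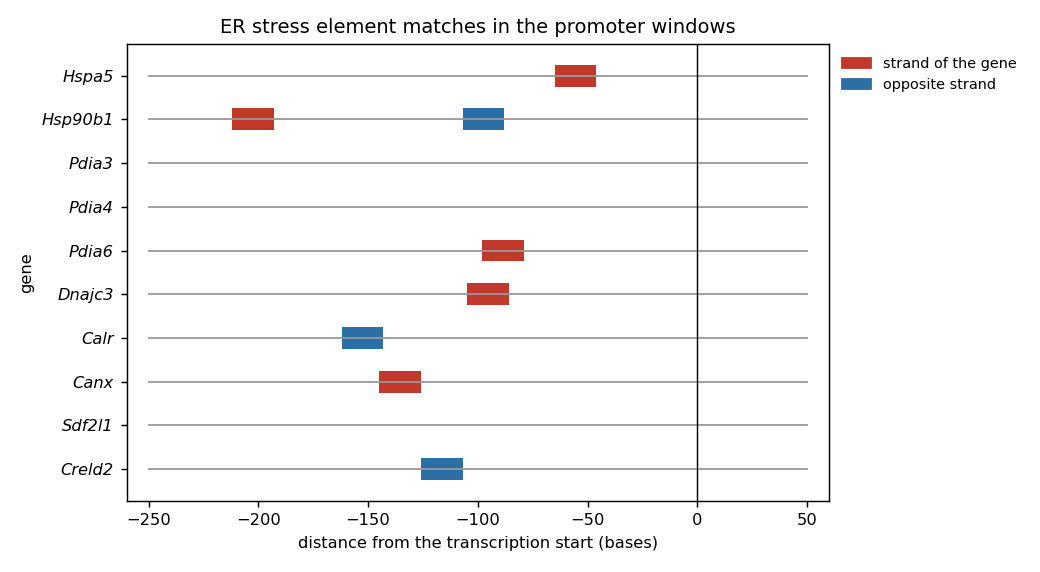
Position of each ERSE match (horizontal axis, bases from the RefSeq start site) in the 300-base window of each of the 10 genes (vertical axis). Each bar is 1 match, red on the strand of the gene and blue on the opposite strand. Hsp90b1 has 2 bars, and Pdia3, Pdia4 and Sdf2l1 have none.

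Members of other pathway lists rarely held the element. It was found in 1 of 24 other ER folding factors with a window (Ero1b, an oxidase that recharges disulfide isomerases). Among factors of ER-associated degradation it was found in 2 of 18, Syvn1, a ubiquitin ligase, and Derl3. The remaining 8 lists held none.

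The first question was how the 10 genes stood in AgRP-like neurons after fasting. All values for this comparison are counts summed over the AgRP-like cells of a plate and scaled by the library total and TMM factors (CPM), and log2 differences are fitted values with their standard error (SE). Transcript sums behind them were 1620200 on the fasted plate and 2162510, 1682308 and 964547 on fed plates 1, 2 and 3. Hspa5 stood highest relative to the fed plates, and 8 of the 10 genes were above all 3 fed plates on the fasted plate, against 31.2% of all 13096 genes tested. In edgeR's quasi-likelihood fit, 6 of the 10 passed a Benjamini-Hochberg adjusted p of 0.05 over all genes tested, against 5.04% of all genes. All 6 were higher on the fasted plate, as were 3.12% of all genes. Those counts come from the contrast by which the genes were chosen, and nothing is read from them.

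Among the chaperones that bind unfolded chains, Hspa5 had 1374 CPM on the fasted plate, against 629, 578 and 522 CPM on fed plates 1, 2 and 3. The fed plates lay close together and the fasted plate lay far above them, a log2 difference of 1.25 (SE 0.21). These values rest on 2167 transcripts on the fasted plate and 1340, 964 and 505 on the fed plates. Hsp90b1, the ER form of HSP90, had 802 CPM on the fasted plate, against 502, 472 and 473 CPM on the fed plates, a log2 difference of 0.73 (SE 0.21). Dnajc3 (p58IPK), a J-domain partner of BiP, had 150 CPM on the fasted plate, against 79.7, 78.5 and 93.0 CPM on the fed plates, a log2 difference of 0.86 (SE 0.21). For these 3 genes the fasted plate was above every fed plate. Sdf2l1, found in complexes with BiP, was low, with 9.51 CPM on the fasted plate against 10.8, 9.59 and 6.20 CPM on the fed plates. Its fasted plate lay inside the fed range.

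Among the disulfide isomerases, Pdia6 (P5) had 482 CPM on the fasted plate, against 292, 269 and 198 CPM on the fed plates, a log2 difference of 0.92 (SE 0.21). Pdia3 (ERp57), which works with the lectins Calr and Canx on glycoproteins, had 255 CPM on the fasted plate, against 144, 165 and 137 CPM on the fed plates, a log2 difference of 0.77 (SE 0.20). For both genes the fasted plate was above every fed plate. Pdia4 (ERp72) had 17.1 CPM on the fasted plate, against 15.01, 18.6 and 11.4 CPM on the fed plates, a log2 difference of 0.16 (SE 0.43). Its fasted plate lay inside the fed range. Creld2, a protein of the ER lumen induced by ER stress, had 38.1 CPM on the fasted plate, against 16.9, 20.98 and 13.4 CPM on the fed plates, a log2 difference of 1.12 (SE 0.34).

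The 2 lectins differed little between plates. Calr (calreticulin, soluble in the lumen) had 349 CPM on the fasted plate, against 271, 277 and 277 CPM on the fed plates, a log2 difference of 0.35 (SE 0.21). Canx (calnexin, anchored in the membrane) had 590 CPM on the fasted plate, against 517, 509 and 470 CPM on the fed plates, a log2 difference of 0.24 (SE 0.21). Both fasted values were above the 3 fed values, and neither gene passed the threshold.

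**Figure D2:**
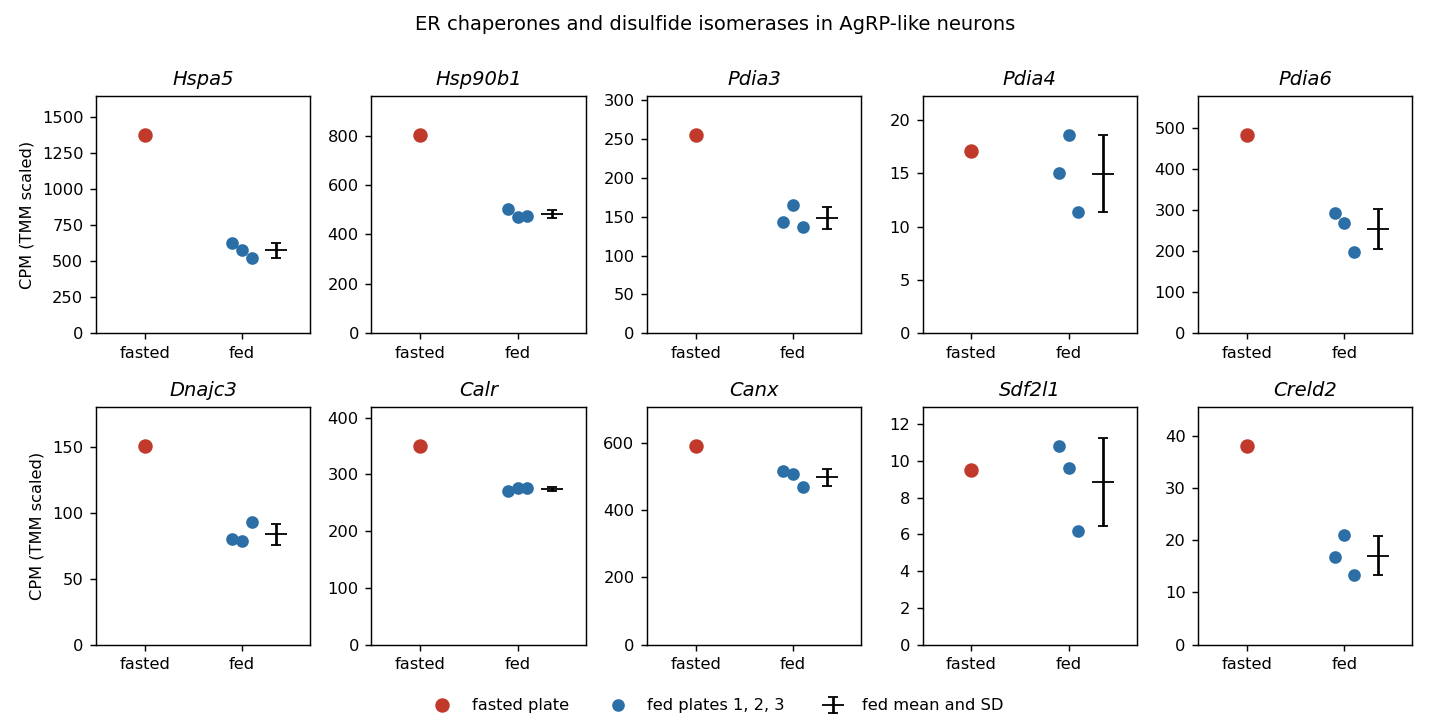
Levels of the 10 genes in AgRP-like neurons, in CPM on axes that start at 0, with the fasted plate left of the 3 fed plates. Each point is 1 plate, and the bar is the mean and SD of the fed plates. Hspa5 is at 1374 CPM on the fasted plate and between 522 and 629 CPM on the fed plates, while Pdia4 and Sdf2l1 overlap.

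The median log2 difference over the 10 genes was 0.75, beside -0.021 over all genes tested. It stayed between 0.72 and 0.79 under 11 other settings. Without fed plate 1 it was 0.75, and 5 of the 10 genes passed. Without fed plate 2, 3 passed (Hspa5, Pdia6 and Creld2), and without fed plate 3, 5 passed. DESeq2 called 3 (Hspa5, Hsp90b1 and Pdia6). The 7 genes with an ERSE match had a median of 0.86 (range 0.24 to 1.25), and the 3 without a match had 0.16 (range 0.051 to 0.77). The 7 other genes with a match that were tested had a median of 0.15. In other neurons the medians were -0.19 with and -0.38 without a match, and in tanycyte-like cells -0.54 with (7 genes) and 0.12 without (2 genes), so the order of the split was not the same in each class. The values in AgRP-like neurons are those by which the genes were chosen, and every setting used the same fasted plate. Nothing is read from the split, the number of genes that passed or the narrow range of the median.

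Several properties of the fasted AgRP-like cells moved with this difference. Their median transcript number was 65448 on the fasted plate, against 25975, 30430 and 33199 on the fed plates, and the median mitochondrial share was 8.32%, against 6.74%, 6.07% and 6.26%. Of the fasted cells, 22 of 23 were Xist-only, against 7 of 83, 40 of 59 and 6 of 28 on the fed plates. AgRP neuron markers summed to 15266 CPM on the fasted plate, against 9015 to 11311 CPM on the fed plates. The summed level of pars tuberalis markers was 1062 CPM on the fasted plate, against 199 to 396 CPM on the fed plates, with 2 of 6 tested markers higher and none of the 7 listed markers at 0. Microglia markers summed to 81.5 CPM on the fasted plate, against 11.1 to 19.6 CPM on the fed plates, with 3 of 5 tested markers higher and 1 of 9 (Tyrobp) at 0. Oligodendrocyte markers summed to 354 CPM on the fasted plate, against 153 to 221 CPM on the fed plates (1 of 8 tested higher), and astrocyte markers to 321.1 CPM, against 261 to 280 CPM (1 of 8 higher). Below the fed plates were leptomeningeal markers, at 42.6 CPM on the fasted plate, against 92.3 to 119 CPM (1 of 4 tested lower), and tanycyte markers, at 234 CPM, against 284 to 408 CPM (1 of 9 lower). The pars tuberalis list includes Chga, and the AgRP neuron list includes Agrp and Npy. These genes are also among the secretory peptide genes reported below. In every class, those marker sums are therefore not separate from the values of these genes. The part of all these markers in the result was not tested. With every cell thinned to 5000 transcripts before summing, the median log2 difference was 0.78, and Hspa5 differed by 1.13. With Xist-only cells alone the median was 0.79, and Hspa5 differed by 1.30. Both settings reuse the fasted plate by which the genes were chosen, so these values are a description.

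Sex itself could be compared within fed plates. Between Xist-only and Y-only AgRP-like cells none of 7 tested genes passed (0.081% of 7407 genes did), and among all kept cells none of 10 did (0.0534% of 13117 genes). In both comparisons edgeR gave 0 of these genes at an unadjusted p under 0.05 and DESeq2 gave 0 calls. Hspa5 differed by -0.08 and -0.04 on the log2 scale, Xist-only minus Y-only. In the AgRP-like comparison, 7, 40 and 6 Xist-only cells stood against 66, 11 and 13 Y-only cells on fed plates 1, 2 and 3. With groups this small and 6 of 7407 genes passing, a gene that did not pass may still differ. The part of sex in the fasted minus fed differences was not tested.

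The same contrast was then tested in the other cell classes. In other neurons, with 25 cells on the fasted plate and 41, 52 and 77 on the fed plates, none of the 10 genes passed in edgeR, against 0.143% of 12597 genes. There, 1 gene (Sdf2l1) had an unadjusted p under 0.05, and DESeq2 called 0. Hspa5 had 570 CPM in other neurons of the fasted plate, against 704, 547 and 601 CPM on the fed plates, a log2 difference of -0.12 (SE 0.27). The fasted value lay within the fed range, unlike in AgRP-like neurons. The make-up of this class differed between plates. On fed plate 1, 35 of its 41 cells lay in a cluster led by Ghrh, Pomc and Gal, which held 0 of the 25 fasted cells. Of those fasted cells, 20 lay in a cluster with 3 cells of fed plate 1. In simulated counts, 38% of genes changed by 1 on the log2 scale were recovered in this class. The median over the 10 genes was -0.23, beside -0.021 over all genes. Pdia3 was the 1 gene with a positive difference in other neurons, 0.36 (SE 0.23). Sdf2l1 had 1 transcript on the fasted plate and 8, 15 and 23 on the fed plates, a ratio of 0.0864 with an exact 95% interval of 0.00214 to 0.506 that covers counting error only. Whether other neurons and AgRP-like neurons differ in the size of the change was not tested.

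Other neurons of the fasted plate shared some of the properties given for its AgRP-like neurons, but not all. Their median transcript number was 43202 on the fasted plate, against 23101.5 to 27350 on the fed plates. Pars tuberalis markers summed to 1175 CPM on the fasted plate, against 370 to 489 CPM, and microglia markers to 82.5 CPM, against 12.03 to 18.3 CPM. Unlike in AgRP-like neurons, astrocyte markers lay below the fed plates, at 347 CPM, against 382 to 702 CPM. Tanycyte markers lay within the fed range, at 696 CPM, against 683 to 857 CPM.

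Tanycyte-like cells, the glia that line the third ventricle, had 39 cells on the fasted plate and 38, 59 and 50 on the fed plates. Calr fell to 133 CPM on the fasted plate, against 424, 322 and 383 CPM on the fed plates (log2 difference -1.49, SE 0.32, edgeR quasi-likelihood adjusted p = 0.00121). The fasted plate was below each of the 3 fed plates, and the difference passed without any one of them. With Xist-only cells alone the log2 difference was -1.34 and the adjusted p was 0.598. This was the 1 call among 9 tested genes, against 2.51% of 9471 genes. Creld2 had 17.0 CPM on the fasted plate, against 75.9, 74.7 and 46.0 CPM on the fed plates, a log2 difference of -1.91 (SE 0.60, adjusted p = 0.0554). It did not pass, but it did without fed plate 1 (log2 difference -1.81, adjusted p = 0.0481). Creld2 rested on 6 transcripts on the fasted plate and 17, 26 and 15 on the fed plates, and Calr on 47 and 95, 112 and 125. The median over the 9 genes was -0.35, beside -0.039 over all genes. Pars tuberalis markers in these cells summed to 1165 CPM on the fasted plate, against 51.2 to 317 CPM on the fed plates. The tanycyte markers themselves summed to 16328 CPM on the fasted plate, against 24673 to 27384 CPM on the fed plates, with 2 of 11 tested markers lower and 1 higher. Oligodendrocyte markers summed to 455 CPM on the fasted plate, against 124 to 334 CPM on the fed plates, with 1 of 4 tested higher. The part of these markers in the differences of Calr and Creld2 was not tested.

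In astrocyte-like, endothelial cell-like and vascular and leptomeningeal cell-like sums no gene passed in edgeR. The counts were 0 of 8 (0.601% of all genes passed), 0 of 7 (0.206%) and 0 of 7 (1.06%). Calr had an unadjusted p under 0.05 in the endothelial and the leptomeningeal sums, no gene did in the astrocyte sums, and DESeq2 called 0 in each. The astrocyte comparison had 2 fed plates, because fed plate 1 held 3 such cells. The log2 difference of Calr was negative in all 5 classes, -0.54 in other neurons, -1.49 in tanycyte-like, -0.64 in astrocyte-like, -1.55 in endothelial cell-like and -1.04 in leptomeningeal cell-like sums. In AgRP-like neurons it was positive, and the difference between classes was not tested. The endothelial cell-like class was mixed by plate. On fed plate 1, 57 of its 72 cells lay in a separate cluster led by Lrg1, Lcn2 and Cfb, which held no cell of another plate.

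**Figure D3:**
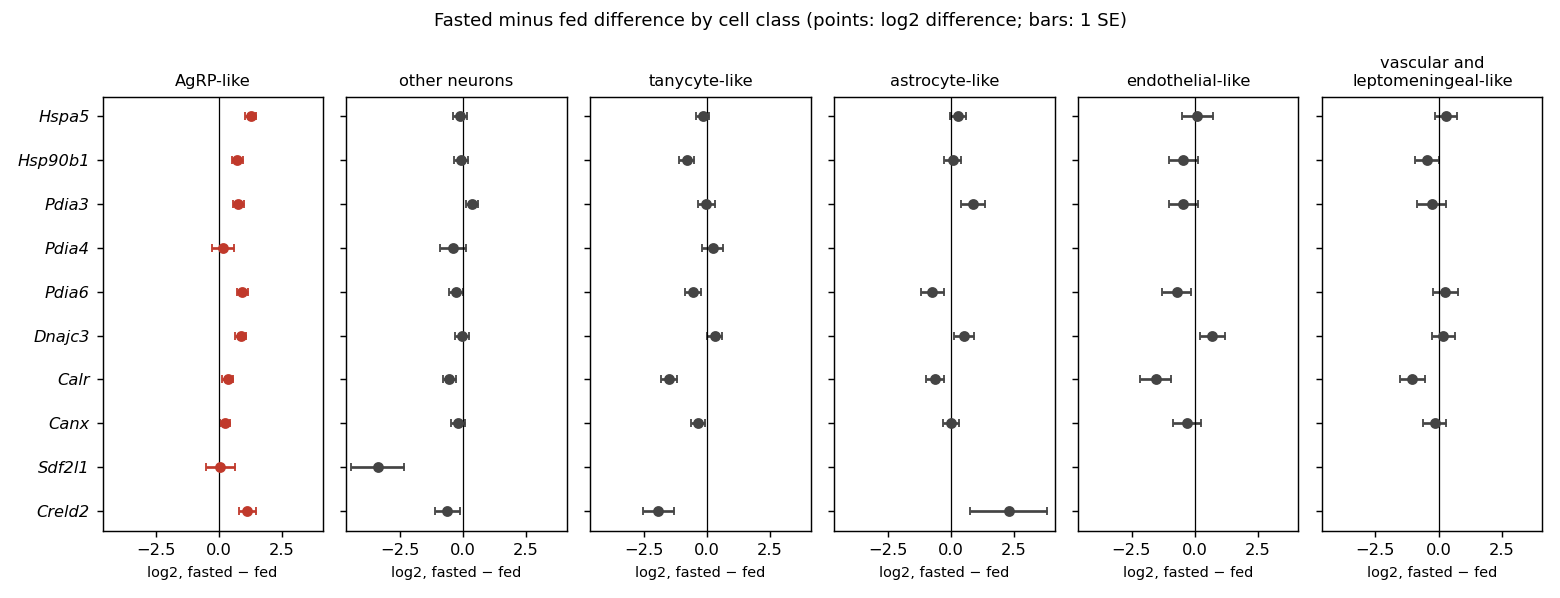
Log2 difference, fasted minus fed, of the tested genes among the 10 (rows) in 6 cell classes (panels). Points are fitted differences and bars 1 SE, to the right of 0 where the fasted plate was higher. Hspa5 is 1.25 in AgRP-like neurons and -0.12 in other neurons, and Calr is negative in all 5 classes other than AgRP-like neurons.

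The second question was where the genes were high at rest. On the fed plates, plain CPM of Pdia4 was 65.7 ± 5.7 in tanycyte-like cells (SD, n = 3 plates), 48.6 ± 5.4 in astrocyte-like cells (n = 2), 30.2 ± 7.6 in endothelial cell-like, 26.3 ± 4.1 in leptomeningeal cell-like, 14.9 ± 3.5 in AgRP-like neurons and 14.4 ± 1.8 in other neurons. Tanycyte-like and astrocyte-like sums did not overlap each other, and neither did astrocyte-like and endothelial cell-like sums, while AgRP-like and other neurons did. Dnajc3 was 320 ± 92 CPM in leptomeningeal cell-like, 235 ± 18 in tanycyte-like, 172 ± 28 in endothelial cell-like, 147 ± 26 in astrocyte-like, 83.3 ± 8.7 in AgRP-like and 79.2 ± 13.3 in other neurons. Among the classes listed here, both genes were thus lowest in neurons. Classes with too few cells on the fed plates, such as oligodendrocyte precursor-like cells, are not in this order. Creld2 ran from 61.7 ± 16.0 CPM in tanycyte-like to 13.1 ± 2.7 CPM in astrocyte-like sums, with every neighbour in the order overlapping.

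The other genes spread less over the 6 classes. Hspa5 was 665 ± 64 CPM in leptomeningeal cell-like sums, 609 ± 76 in other neurons, 572 ± 48 in AgRP-like neurons, 464 ± 64 in tanycyte-like, 311 ± 187 in endothelial cell-like and 246 ± 8.5 in astrocyte-like sums, and each overlapped its neighbour. Its endothelial cell-like values were 510, 139 and 283 CPM on fed plates 1, 2 and 3, and fed plate 1 alone held the separate endothelial cluster. Calr was highest in leptomeningeal cell-like sums, at 514 ± 38 CPM, and lowest in AgRP-like neurons, at 273 ± 5.4 CPM. Canx was highest in tanycyte-like sums (615 ± 85 CPM) and lowest in astrocyte-like sums (298 ± 29.5 CPM). Pdia6 ranged over 1.53-fold between classes, the narrowest span of the 10, and Sdf2l1 averaged at most 10.2 CPM on the fed plates in any class.

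Each class was then compared with all other kept cells of its plates, in a fit with plate as a block. The remaining cells were summed by transcript, so deep cells weigh most. On the fasted plate AgRP-like and other neurons gave 1620200 and 1104347 of the 5098279 transcripts. For every class but AgRP-like neurons, the remaining cells include the fasted AgRP-like cells by which the genes were chosen. Tanycyte-like cells had Pdia4 at 69.1 ± 6.8 CPM, against 21.4 ± 2.7 CPM in the remaining cells (SD, n = 4 plates), higher on 4 of 4 plates (log2 difference 1.702, SE 0.24, edgeR adjusted p = 3.25e-06). Dnajc3 was at 252 ± 32 CPM in tanycyte-like cells, against 127 ± 24 CPM in the remaining cells, also on 4 of 4 plates (1.00, SE 0.15, edgeR adjusted p = 1.06e-05). Leptomeningeal cell-like sums had Dnajc3 at 353 ± 76 CPM, against 122 ± 23 CPM (1.53, SE 0.23, edgeR adjusted p = 8.9e-10). Both genes were lower in other neurons, Pdia4 at 13.8 ± 2.3 CPM, against 28.9 ± 3.0 CPM (-1.08, SE 0.21), and Dnajc3 at 80.2 ± 11.1 CPM, against 156 ± 25 CPM (-0.95, SE 0.13). Hspa5 was lower in astrocyte-like cells, at 277 ± 39 CPM, against 616 ± 174 CPM on 3 plates (-1.14, SE 0.20), and in endothelial cell-like cells, at 344 ± 197 CPM, against 617 ± 134 CPM on 4 plates (-0.94, SE 0.23). The endothelial sum of fed plate 1 includes the separate cluster found on that plate alone. Hsp90b1 was lower in astrocyte-like cells, at 263 ± 34 CPM, against 466 ± 76 CPM (-0.82, SE 0.20). These 8 calls kept their direction and their side of the threshold under every alternative run.

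A further 14 calls lost the threshold under at least 1 alternative. In AgRP-like neurons, Pdia4 (-0.81) lost it without fed plate 3 (-0.73, adjusted p = 0.0502 in edgeR), and Dnajc3 (-0.58) without fed plate 2 (-0.53, adjusted p = 0.0734). In tanycyte-like cells, Hspa5 (-0.48) lost it without the fasted plate (-0.28, adjusted p = 0.156), Hsp90b1 (-0.66) without the fasted plate (-0.40) or fed plate 3 (-0.63), and Creld2 (0.81) without fed plate 1 (0.67), 2 (0.49) or 3 (0.81). Astrocyte-like Pdia6 (-0.67) lost it without the fasted plate (-0.24), and Canx (-0.53) without the fasted plate (-0.51) or fed plate 2 (-0.39). Endothelial cell-like Dnajc3 (0.66) lost it without the fasted plate (0.62) or fed plate 2 (0.59), and Canx (-0.65) without the fasted plate (-0.58), fed plate 2 (-0.57) or fed plate 3 (-0.65). Leptomeningeal cell-like Calr (0.76) lost it without fed plate 2 (0.55) or 3 (0.59). Oligodendrocyte-like Hspa5 (-1.11) lost it without fed plate 2 (-0.59), and Pdia6 (-0.82) without fed plate 2 (-0.23) or 3 (-0.59). In oligodendrocyte precursor-like cells, Hspa5 (-0.80) lost it without the fasted plate (-0.70) or fed plate 2 (-0.65), and Dnajc3 (-0.86) without fed plate 2 (-0.77) or 3 (-0.63). Leaving out a plate also added calls. In AgRP-like neurons Creld2 was lower than in the remaining cells without the fasted plate (-0.95), and Hsp90b1 (0.48) and Pdia3 (0.49) were higher without fed plate 1. Without fed plate 2, Calr passed in other neurons (-0.39), and Pdia3 (-0.66) and Pdia6 (-0.55) in tanycyte-like cells. Hsp90b1 passed in endothelial cell-like cells without fed plate 1 (-0.71).

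These counts are set beside those over all genes, since classes differed at many genes. Of the 10 genes, 5 passed in tanycyte-like cells (39.9% of all genes tested did), 4 in astrocyte-like (36.6%), 3 in endothelial cell-like (41.1%) and 2 in each of AgRP-like (42.7%), other neurons (40.2%), leptomeningeal cell-like (29.2%), oligodendrocyte-like (32.1%) and oligodendrocyte precursor-like (22.2%). The shares of the 10 genes were near the background or below it. Plain library totals in place of TMM moved the median of all genes by -0.16 in the astrocyte-like, -0.11 in the endothelial cell-like, -0.17 in the leptomeningeal cell-like and -0.13 in the oligodendrocyte-like comparison, on the log2 scale.

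**Figure D4:**
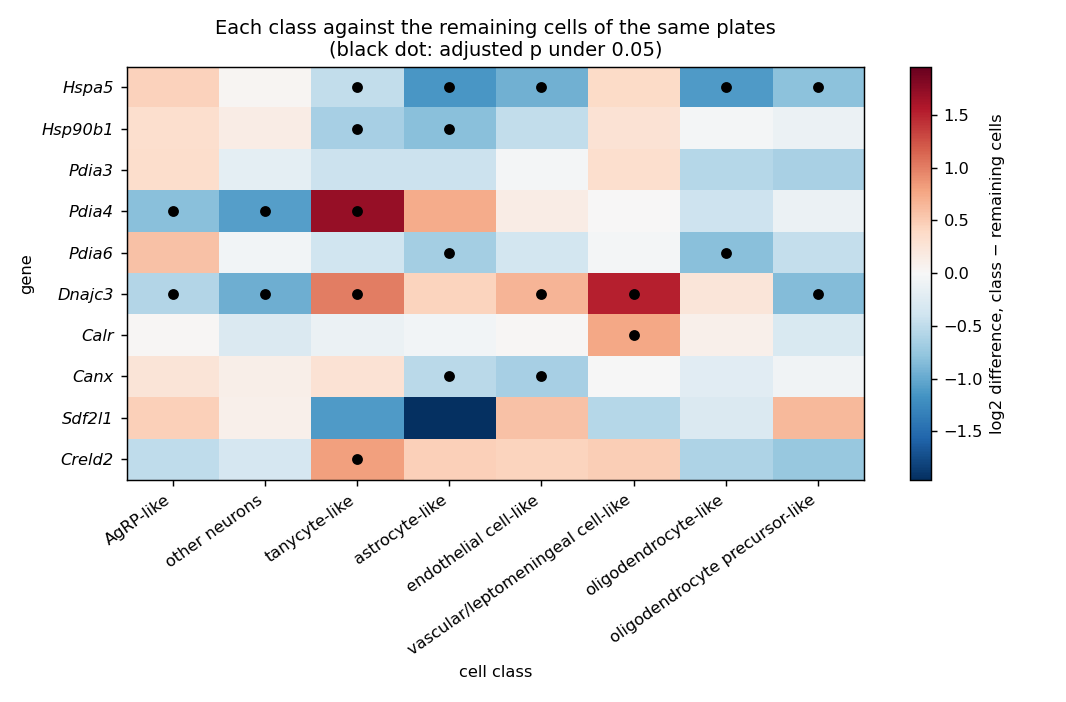
Log2 difference between a cell class (columns) and the other kept cells of its plates for each of the 10 genes (rows), as colour, red where the class was higher. Black dots mark an adjusted p under 0.05. Pdia4 reaches 1.702 in tanycyte-like cells and -1.08 in other neurons, and Dnajc3 reaches 1.53 in leptomeningeal cell-like sums.

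AgRP-like neurons were also set against the other neurons of the same plates. Pdia3 was higher in AgRP-like neurons, at 264 CPM, against 161 CPM in other neurons on the fasted plate, and at 146, 168 and 140 CPM, against 124, 129 and 123 CPM on fed plates 1, 2 and 3 (log2 difference 0.39, SE 0.11, higher on 4 of 4 plates). It was the only one of the 10 genes to pass in edgeR, against 15.3% of 11743 genes. That fit includes the fasted AgRP-like sum, by which the genes were chosen, so the call is a description. The call was lost without the fasted plate (0.28, adjusted p = 0.111) and without fed plate 2 (0.38, adjusted p = 0.124), and with DESeq2 (0.39, adjusted p = 0.176). On the fed plates alone, Hspa5 had 638, 588 and 533 CPM in AgRP-like neurons, against 691, 543 and 601 CPM in other neurons, with no common direction.

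The genes around the 10 in the secretory pathway were read from lists, each with the same edgeR test in AgRP-like neurons, fasted minus fed, in which 5.04% of all genes passed. Of 28 other ER folding factors, 7 rose and none fell, with a median of 0.36. Hyou1, an exchange factor for BiP, had 51.4 CPM on the fasted plate, against 13.6, 27.0 and 12.4 CPM on the fed plates (1.51, SE 0.35, adjusted p = 0.00792). P4hb, the classic disulfide isomerase, had 241 CPM, against 153, 138 and 93.0 CPM (0.89, SE 0.22, adjusted p = 0.0143). Fkbp14, a prolyl isomerase, and Txndc11 also rose, by 1.18 and 1.095. No gene of this list was called by DESeq2.

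At the entry to the ER, 4 of 20 translocation genes rose and none fell, and DESeq2 called 1. Tram1 had 202 CPM on the fasted plate, against 96.6, 88.7 and 73.3 CPM on the fed plates (1.21, SE 0.21, adjusted p = 0.000226). The Sec61 channel subunits Sec61a1 and Sec61b rose by 1.01 and 0.88, as did Srpr, a subunit of the signal recognition particle receptor, by 0.72. Of 19 N-glycosylation genes, 3 rose and none fell (DESeq2 called 1): the oligosaccharyltransferase subunits Rpn1 (0.93), Ostc (0.87) and Stt3b (0.76). Of 27 genes of ER to Golgi transport, 3 rose and none fell (DESeq2 called 0): Sec24d (1.14), a coat protein of COPII vesicles, Tmed2 (1.01) and the cargo receptor Lman1 (0.86). Of 11 calcium handling genes, Ryr3, a calcium release channel, rose by 0.94 and none fell (DESeq2 called 1). The counts for ER to Golgi transport, calcium handling and the ATF4 targets below are 1 to 3 genes each and are not read as different from the share of all genes.

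The regulators and the degradation arm gave few calls. None of 13 sensors and factors of the unfolded protein response passed in edgeR, with a median of 0.16. There, 2 genes (Atf6 and Creb3l2) had an unadjusted p under 0.05, and DESeq2 called 0. None of 21 genes of ER-associated degradation passed, with a median of 0.24, 5 at an unadjusted p under 0.05 and 0 by DESeq2. Of 15 targets of ATF4 and the integrated stress response, Psat1, an enzyme of serine synthesis, rose by 1.52 (adjusted p = 0.00467), and none fell, while DESeq2 called 0.

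The secretory peptide load list had 8 of 18 genes higher, none lower and a median of 0.73, and DESeq2 called 4. Vgf, a granin family precursor, had 1397 CPM on the fasted plate, against 110, 87.5 and 83.7 CPM on the fed plates (3.88, SE 0.20, adjusted p = 5.88e-16). Agrp had 2606 CPM, against 1161, 1489 and 1284 CPM (0.99, SE 0.23, adjusted p = 0.00578). The granins Chga and Scg2 rose by 1.92 and 1.02. Cytosolic heat shock proteins went the other way more often, with 1 of 14 higher (Hspa8, 0.76) and 6 lower, and DESeq2 called 6. The inducible HSP70 gene Hspa1b had 10.1 CPM on the fasted plate, against 188, 232 and 203 CPM on the fed plates (-4.35, SE 0.33, adjusted p = 3.08e-11). Hspa1a fell by 1.56, Hspb1 by 1.79 and Hspe1, a mitochondrial chaperonin subunit, by 1.01 on the log2 scale. Hspa1a and Hspa1b are near-identical copies, so their counts cannot be cleanly separated.

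In other neurons, 2 genes of all these lists passed in edgeR, Hspa1b (-3.02) and Hspa1a (-1.79). Outside neurons, granins and Vgf were higher on the fasted plate in several classes. In tanycyte-like sums 2 of 15 tested load genes passed (2.51% of all genes did), Chgb (2.42, edgeR adjusted p = 3.19e-07) and Vgf (1.63, edgeR adjusted p = 0.00627). In astrocyte-like sums 3 of 12 passed (0.601% of all genes), Chga (3.41), Vgf (2.02) and Chgb (1.87), and in leptomeningeal cell-like sums 2 of 12 (1.06%), Chga (4.07) and Chgb (2.33). Chga had 1906 CPM in leptomeningeal cell-like sums of the fasted plate, against 261, 21.3 and 78.3 CPM on the fed plates. Chga is also 1 of the 7 pars tuberalis markers. Scaled by library totals alone, those markers summed to 2130 CPM in the same fasted sums, against 41.3 to 341 CPM on the fed plates. In endothelial cell-like sums none of 11 passed in edgeR, with 4 (Sst, Chga, Chgb and Vgf) at an unadjusted p under 0.05 and 0 called by DESeq2. The rise of these genes on the fasted plate was thus measured in non-neuronal classes as well as in AgRP-like neurons. Cytosolic heat shock genes also had negative medians in tanycyte-like (-0.48), astrocyte-like (-0.25), endothelial cell-like (-0.19) and leptomeningeal cell-like sums (-0.21). They stood at -0.47 in AgRP-like and -0.48 in other neurons. In tanycyte-like sums other ER folding factors and N-glycosylation genes had medians of -0.34 and -0.27, beside -0.039 over all genes. The lists were drawn up with earlier results of these plates known, so their counts are a description.

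The last question was whether, cell by cell, AgRP-like neurons with more peptide transcripts also had more of the 10 genes. To bring cells to a common depth, each was thinned to 5000 transcripts, which left 185 cells (23 fasted and 80, 55 and 27 fed). The 10 genes summed to a median of 19 transcripts in fasted cells (range 9 to 32), against 12.5, 11 and 11 in cells of fed plates 1, 2 and 3. Of 23 fasted cells, 20 lay above the fed median of 12, and for Hspa5 alone 21 of 23 lay above the fed median of 3. These 23 cells share 1 plate and are not replicates of fasting. The genes were also chosen by this contrast, so the counts of cells are a description. The ranges overlapped widely, since fed cells reached 31 transcripts. The load genes summed to a median of 125 in fasted cells, against 96, 97 and 80 in fed cells.

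Within a plate the sums were barely related. Spearman's rho between the 10 genes and the load was 0.02 on the fasted plate and -0.02, 0.17 and -0.05 on fed plates 1, 2 and 3, and Pearson's r was 0.06 and 0.19, 0.15 and -0.07. Thinning did not remove all relation with depth: the thinned load had a rho of -0.56 with a cell's original transcript number on the fasted plate and -0.26 on fed plate 1, while the thinned sum of the 10 genes had 0.21 and 0.25. The correlations between the sums are descriptions over cells that share a plate, and a weak correlation in counts this sparse is no finding. Hsp90b1 was positive on all 4 plates (0.08 to 0.31) and Pdia3 negative on all 4. Among the load genes, Cpe, the carboxypeptidase that trims peptide precursors, was positive against the 10 genes on all 4 plates (mean rho 0.25), as was Scg3, a granin (mean rho 0.13), and Vgf reached 0.56 on the fasted plate but averaged 0.17. Without thinning, the mean rho over plates was 0.14 and the mean Pearson's r 0.38, beside 0.030 and 0.083 with it.

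**Figure D5:**
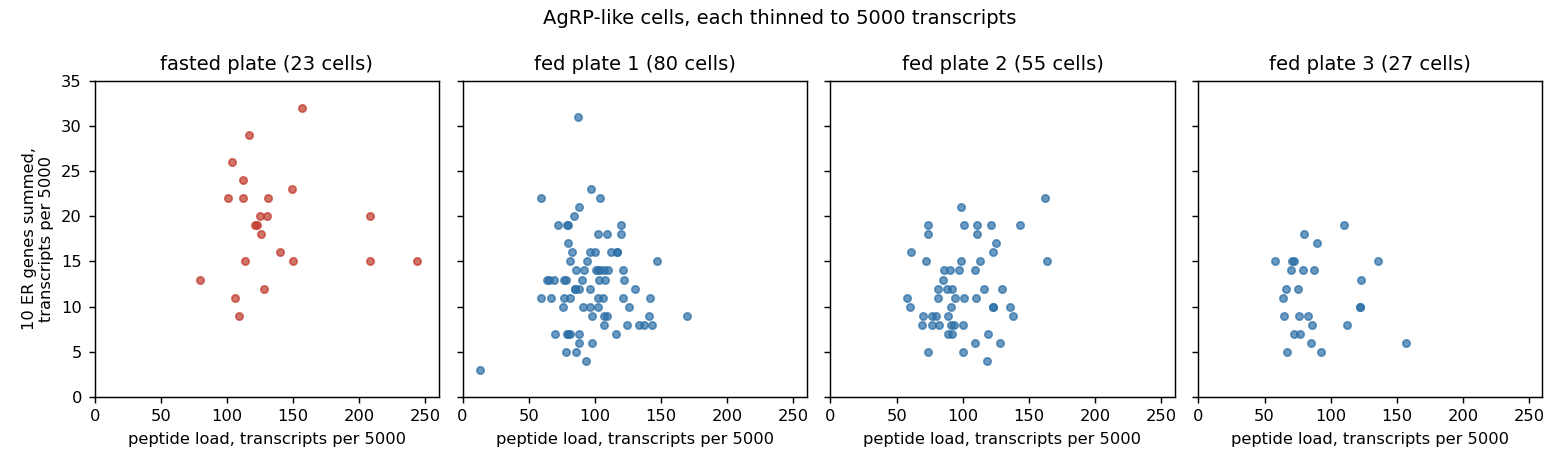
Transcripts of the 10 genes summed (vertical axis) against transcripts of the secretory peptide load genes summed (horizontal axis) in AgRP-like neurons thinned to 5000 transcripts, fasted plate left of the fed plates; each point is 1 cell. Fasted cells are centred on 19 and fed cells on 12 transcripts, with no clear slope within a plate.

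The genes also varied little together across cells: the median rho of all 45 pairs was 0.073 on fed plate 1 and 0.051 on fed plate 2. On the fasted plate and fed plate 3, where Sdf2l1 had no transcript after thinning, it was 0.050 and 0.058 over the 36 pairs left. Dnajc3 and Calr were the pair with a mean of 0.21 that was positive on 4 plates. After thinning, Sdf2l1 was seen in 0 of 23 fasted cells, which at that depth allows up to 13.0% of cells with a transcript, and in 0 of 27 cells of fed plate 3 (up to 11.1%). The same 23 cells held 15 Sdf2l1 transcripts before thinning, so these limits concern detection at the thinned depth and not expression.

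Over the 30 sums of a class on a plate, which share libraries and differ in depth, Hspa5 and Hsp90b1 followed each other with r = 0.77, Hsp90b1 and Pdia6 with r = 0.73, and Pdia4 and Creld2 with r = 0.70. Hspa5 and Pdia4 ran apart (r = -0.20), and the median over 36 pairs was 0.23. The genes outside the list that were most like the mean of 9 of the 10 genes over these sums, among 9751 genes, were Gpr180 (r = 0.77), Armc10 (0.76), Mthfsl (0.76), Rpn2 (0.75), Rpl7l1 (0.75), Npc2 (0.74), U2af1l4 (0.74) and Zpr1 (0.74), beside a median r of 0.098 over all those genes. Rpn2 is a subunit of the oligosaccharyltransferase, which puts the glycan on proteins that Calr and Canx then hold. The 9 genes themselves followed the mean of the others less closely, with r from 0.094 (Dnajc3) to 0.59 (Canx), and 0.19 for Hspa5.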

How the data were processed

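Single sorted cells were sequenced by CEL-seq2 in 4 plates of 384 wells, 1 fasted and 3 fed, per the labels. The deposited tables hold expected counts, that is transcript numbers per gene and well after correction for molecular identifiers that collide. The submitters' processing notes name Trim Galore, STAR and the build mm10, and for the counting tool and annotation nothing is given in the sources used here. The values were rounded to whole numbers. Wells were filtered and clustered in scanpy 1.11.5 without the 10 genes or the pathway lists, and clusters were called X-like from fixed markers. The level that separates neuron clusters was set after seeing the data. No doublet caller was run, since each well received 1 sorted cell.

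Counts were summed per plate and class (at least 10 cells for fasted minus fed, at least 5 for class against remaining cells). They were scaled with TMM, filtered with filterByExpr and tested with the robust quasi-likelihood test of edgeR 4.0.16, with p-values adjusted by Benjamini-Hochberg over all genes tested and a threshold of 0.05. The lone fasted plate is assumed to vary like the fed plates. With no word on separate animals, p-values measure the spread between plates, which may be technical. Comparisons of classes had the plate as a block. DESeq2 1.42.0, other scalings, filters, clusterings and left-out plates were alternatives, and the code was tested on simulated data. With the spread simulated gene by gene, the share of false calls among all calls was above the nominal threshold in every comparison tried. For fasted minus fed it was 14.5% in AgRP-like neurons, 10.1% in tanycyte-like cells and 11.8% in other neurons. For AgRP-like minus other neurons it was 6.6%. With a spread that followed expression level these shares were 7.7%, 2.6%, 5.5% and 3.4%.

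All 10 genes are named. From each pathway list at most the 4 genes with the largest difference in each direction past the threshold are named, and the 8 genes most like the mean of the 10. The members and lists were chosen with earlier results of these data known. Intervals and floors of 3 counts cover counting error only. Protein sequences were not used here.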

Additional observations from a re-analysis of the deposited data

Results flagged for a closer look

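For 7 of the 10 genes, the fasted plate lay on opposite sides of the fed plates in AgRP-like neurons and in another class: it was above every fed plate in AgRP-like neurons and below every fed plate in the other class. The difference between the classes was not tested in any of these cases, and the AgRP-like side is the contrast by which the genes were chosen. In AgRP-like neurons, 31.2% of all 13096 genes tested were above every fed plate. The share of all genes with opposite sides was not worked out, so nothing is read from the count of 7 genes. Values are log2 differences, fasted minus fed, in the other class.

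For Calr this held in other neurons (-0.54), tanycyte-like (-1.49), astrocyte-like (-0.64), endothelial cell-like (-1.55) and vascular and leptomeningeal cell-like sums (-1.04), against 0.35 in AgRP-like neurons. Pdia6 did so in other neurons (-0.27), tanycyte-like (-0.54) and astrocyte-like sums (-0.72), against 0.92. Creld2 did so in other neurons (-0.61) and tanycyte-like sums (-1.91), against 1.12, and Canx in other neurons (-0.19) and tanycyte-like sums (-0.35), against 0.24. Hsp90b1 did so in tanycyte-like (-0.79) and vascular and leptomeningeal cell-like sums (-0.46), against 0.73. Hspa5 did so in tanycyte-like sums (-0.17), against 1.25, and Pdia3 in vascular and leptomeningeal cell-like sums (-0.28), against 0.77. Calr and Canx did not pass in AgRP-like neurons. Of these differences in other classes, Calr in tanycyte-like cells passed the threshold and the rest did not.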

How the results depend on the processing

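The median log2 difference of the 10 genes in AgRP-like neurons kept its direction and moved by less than the spread in 11 alternatives. All of these used the fasted plate by which the genes were chosen, so nothing is read from this. The number of the 10 genes called there was 6, and it was 3 with DESeq2, 1 with Xist-only cells, 1 with thinned cells and 3 to 5 with a fed plate left out. In the other classes, fasted minus fed, 1 gene was called, 2 at Leiden resolution 1.0, 0 with Xist-only cells and 1 to 2 with a fed plate left out. Between AgRP-like and other neurons 1 was called, 0 with DESeq2, Xist-only or thinned cells, 2 with no filter on low counts and 0 to 1 with a plate left out. Between classes and remaining cells 22 were called, 13 with DESeq2, 13 with Xist-only cells (over 7 classes, which gave 20 with all cells) and 15 to 16 with a plate left out. Without fed plate 1, 5 classes could be fitted, and their 16 calls stand against 14 with all plates, while the other left-out plates gave 15 or 16 against 22 over 8 classes. The mean rho per cell was 0.030, and it was 0.148 when thinned to 2000 transcripts and 0.144 without thinning. For Pearson's r it was 0.083, and it was 0.216 and 0.377 under the same changes. Sdf2l1 in AgRP-like neurons reversed without fed plate 3 (-0.10, range -0.10 to 0.21 over left-out plates). Of the other values in AgRP-like neurons, 83 kept their side of the threshold and 23 lost it, and elsewhere 173 kept it and 58 lost it. Over all genes, calls in AgRP-like neurons numbered 660, 180 with DESeq2, 57 with Xist-only cells and 65 with thinned cells. The cause of these shifts was not tested, but Xist-only and thinned sums hold fewer transcripts. Thinned sums, scaling without the load genes and the 5-cell minimum were chosen after seeing the data. Not run were the stricter filter for leptomeningeal cell-like fasted minus fed (7 fasted cells), the Xist-only fit for oligodendrocyte-like cells and the left-out plates for the per-cell relation. No paired analysis was possible because the fasted group has 1 plate, so the groups share fewer than 2 replicate numbers. Depth limits Sdf2l1 and Pdia4 most.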
